A study of Mus musculus with 2 samples.

Results

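The calcitonin and adrenomedullin system was examined in whole uterus of Mettl14 d/d and Mettl14 f/f mice on gestational day 4. It was taken as 8 genes listed by symbol, of the 55363 gene symbols in the data: the peptide genes Calca, Calcb, Adm and Adm2, the receptor gene Calcrl, and Ramp1, Ramp2 and Ramp3, which encode receptor activity-modifying proteins (RAMPs). Each matched 1 row of the deposited values. There was 1 library of d/d uterus and 1 of f/f uterus, so no value has a replicate error, no test was possible, and "higher" and "lower" compare these libraries only. In mouse genetics d usually denotes a deleted allele and f a floxed one. The product of Mettl14 binds RNA beside the catalytic subunit Mettl3 when N6-methyladenosine is written on RNA. The females of both groups were 6 to 8 weeks old at mating with fertile males, and the plug day was counted as day 1. The labels used here name no Cre line, strain or number of animals in a library. Mettl14 was 3.21 FPKM (fragments scaled to transcript length and to the mapped fragments of the library) in the d/d library and 13.6 FPKM in the f/f library.

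Calcitonin gene-related peptide (CGRP), adrenomedullin and intermedin share one receptor, the product of Calcrl, which reaches the cell surface and recognises its ligand only together with a RAMP. Calcitonin acts on another receptor, the product of Calcr. With Ramp1 the Calcrl product forms the receptor for CGRP, and with Ramp2 or Ramp3 a receptor for adrenomedullin. The Calcrl receptors couple mainly to Gs and cyclic AMP, and they are best known for vessel dilation, endothelial barrier function and lymphatic growth. Calca gives, by alternative splicing, either calcitonin or CGRP, and calcitonin is a known progesterone-induced product of the rodent uterine epithelium before implantation. The deposited values are per gene, so calcitonin and CGRP messages of Calca cannot be told apart here.

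On the receptor side, Ramp3 was 17.0-fold higher in d/d, Ramp1 was 3.14-fold lower, Ramp2 was nearly level, and Calcrl was 1.75-fold lower. Among the peptides, Calca was listed at 0 in d/d and Adm was nearly level. Log2 ratios, d/d over f/f, are on the scale of (FPKM + 1). A gene was called past 2-fold, a log2 ratio of 1 or more in either direction, provided it reached 1 FPKM in d/d or f/f. Of the 8 genes 6 met this minimum, and Calcb and Adm2 did not. Of the 6, Ramp3 was called higher, Calca and Ramp1 were called lower, and Adm, Calcrl and Ramp2 were neither. Over all 16263 genes that reached the minimum 18.4% were called, 10.2% as higher and 8.28% as lower. The median log2 ratio was -0.48 for the 6 members and -0.01 for all genes.

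**Figure D1:**
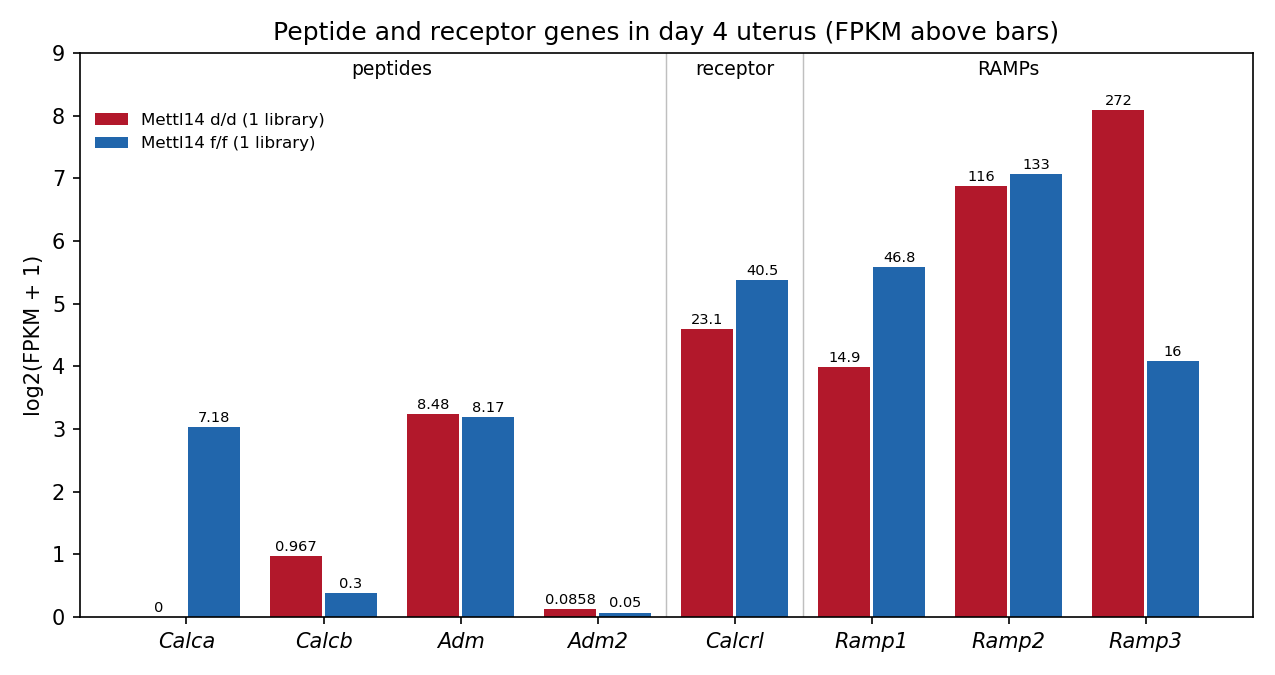
Level of each of the 8 genes as log2(FPKM + 1), with the FPKM above each bar; red bars are the d/d library and blue bars the f/f library, and bars have no error because there is 1 library per genotype. Ramp3 stands at 272 FPKM in d/d against 16.0 in f/f, Ramp1 at 14.9 against 46.8, and Calca is listed at 0 in d/d against 7.18 FPKM in f/f.

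Upstream sequences are shown for the 3 called genes, since these carry the difference between the libraries. They come from RefSeq on build GRCm38.p6 and run from 250 to 21 bases before the annotated start, 5′ to 3′ on the strand of the gene. The Calca window is chr7:114636378-114636607 on the minus strand, the Ramp1 window chr1:91179572-91179801 on the plus strand, and the Ramp3 window chr11:6658283-6658512 on the plus strand. Capitals mark matches, on either strand, to short motifs: TGACC (one arm of an estrogen response element), TGTTCT (one arm of a progesterone response element), ACGTG or GCGTG (core of a hypoxia response element), TGACG (one arm of a cyclic AMP response element) and GGGCGG (GC box).
Calca: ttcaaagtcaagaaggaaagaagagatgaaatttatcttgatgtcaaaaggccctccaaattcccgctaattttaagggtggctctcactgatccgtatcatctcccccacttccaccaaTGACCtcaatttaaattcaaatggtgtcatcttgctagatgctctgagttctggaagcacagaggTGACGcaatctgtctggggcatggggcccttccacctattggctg
Ramp1: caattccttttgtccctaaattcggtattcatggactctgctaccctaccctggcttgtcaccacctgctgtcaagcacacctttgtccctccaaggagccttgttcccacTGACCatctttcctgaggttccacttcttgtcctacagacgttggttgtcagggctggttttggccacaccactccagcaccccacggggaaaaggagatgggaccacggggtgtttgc
Ramp3: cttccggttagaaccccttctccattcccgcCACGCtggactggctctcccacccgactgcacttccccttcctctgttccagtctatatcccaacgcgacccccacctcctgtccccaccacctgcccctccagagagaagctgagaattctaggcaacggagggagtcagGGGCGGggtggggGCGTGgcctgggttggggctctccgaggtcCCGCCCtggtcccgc

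The Calca window held 1 TGACC at 130 to 126 bases before the start and 1 TGACG at 65 to 61. Ramp1 held 1 TGACC at 139 to 135 and no other of these motifs. Ramp3 held 2 hypoxia cores, at 219 to 215 and 65 to 61, and 2 GC boxes, at 78 to 73 and 35 to 30. None of the 3 windows held TGTTCT, or the full estrogen element of GGTCA and TGACC separated by 3 bases. Such short motifs are common: over 32851 RefSeq windows of this length 33.1% held TGACC, 15.0% TGTTCT, 36.0% a hypoxia core, 15.9% TGACG and 29.8% a GC box, while 0.0578% held the full estrogen element. GC content was 45.7% for Calca, 53.9% for Ramp1 and 65.7% for Ramp3, beside a median of 51.7% over all windows. These matches describe the letters in the windows and were not linked to binding. The table held windows for 6 of the 8 genes, not for Calcb and Ramp2. Of the 3 not shown, Adm held 2 hypoxia cores, 1 TGACC and 1 GC box, Calcrl held 1 GC box, and Adm2 held none of the motifs.

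Calca (ENSMUSG00000030669, chromosome 7, 114631478 to 114636357, minus strand, GRCm38) was listed at 0 FPKM in the d/d library and was 7.18 FPKM in the f/f library. In f/f that level corresponds to about 127 fragments, by the depth estimated at the end of the results. A log2(FPKM + 1) ratio of -3.03 or lower was found in 116 of the 16263 genes, Calca included. With Calca at 0 in d/d its ratio is set by the pseudocount, so this count holds only for that scale. Of 11888 rows at 5 FPKM or more in f/f, 41 were listed at 0 in d/d. In the other direction, of 11797 rows at 5 FPKM or more in d/d, 47 were listed at 0 in f/f. Both sets of rows include genes far above the level of Calca, and the rate near 7.18 FPKM was not counted. None of 14 reference genes was at 0 in either library, but these were not matched to Calca in level. The 3 genes with values nearest to those of Calca, by Euclidean distance of log2(FPKM + 1) over the 2 libraries, were Klra4, Prss56 and Lgr5. They were listed at 0 in d/d and were 7.17, 7.41 and 7.45 FPKM in f/f, values that the choice by distance fixes.

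The other CGRP gene, Calcb (ENSMUSG00000030666, chromosome 7, 114718643 to 114723365, plus strand), lies 82.3 kb from Calca on the opposite strand. It was 0.967 FPKM in d/d and 0.300 FPKM in f/f, about 19 fragments in d/d and 5 in f/f, so its level was low in both libraries and the direction is uncertain. Calca was thus below Calcb in the d/d library, while in f/f Calca was the higher of the pair. The receptor for calcitonin itself, Calcr, was listed at 0 in both libraries. Amylin, encoded by Iapp, was 0.0835 FPKM in d/d and listed at 0 in f/f.

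Adm (ENSMUSG00000030790, chromosome 7, 110627661 to 110629820, plus strand), which encodes the vasodilator adrenomedullin, was 8.48 FPKM in d/d and 8.17 FPKM in f/f, a log2 ratio of 0.05. Adm2 (ENSMUSG00000054136, chromosome 15, 89322720 to 89324731, plus strand), which encodes the related peptide intermedin, was 0.0858 FPKM in d/d and 0.0500 FPKM in f/f. At about 2 fragments in d/d and 1 in f/f, Adm2 was barely detected in either library. The summed level of the 4 peptide genes was 9.54 FPKM in d/d and 15.7 FPKM in f/f. Adm made up 89.0% of that sum in d/d and 52.1% in f/f, and Calca 0% in d/d and 45.7% in f/f. By FPKM Adm was the highest of the 4 in both libraries, but in f/f Calca was close to it, at 7.18 FPKM beside 8.17 FPKM.

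Calcrl (ENSMUSG00000059588, chromosome 2, 84330626 to 84425411, minus strand) was 23.1 FPKM in d/d and 40.5 FPKM in f/f. Its log2 ratio was -0.78, short of the 2-fold threshold. Ramp2 (ENSMUSG00000001240, chromosome 11, 101246028 to 101259546, plus strand), the RAMP needed for vessel development in mice, was 116 FPKM in d/d and 133 FPKM in f/f, a log2 ratio of -0.19. Annotated exons of Ramp2 overlap those of its neighbour Vps25 on the same strand by up to 637 bases. Vps25 was 93.0 FPKM in d/d and 86.7 FPKM in f/f, so the split of fragments between the 2 genes is uncertain.

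Ramp1 (ENSMUSG00000034353, chromosome 1, 91179822 to 91225196, plus strand), the partner that makes the CGRP receptor, was 14.9 FPKM in d/d and 46.8 FPKM in f/f. That is a log2 ratio of -1.59, and 529 of the 16263 genes had a ratio this low or lower. By rank of level Ramp1 was number 7764 of these genes in d/d and number 3015 in f/f. The genes nearest to it in both libraries were Adgrl1, Gjc1 and Nme4, at 14.4, 15.3 and 13.9 FPKM in d/d against 48.4, 44.5 and 43.7 FPKM in f/f.

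Ramp3 (ENSMUSG00000041046, chromosome 11, 6658521 to 6677475, plus strand), the other adrenomedullin partner, was 272 FPKM in d/d and 16.0 FPKM in f/f. Its log2 ratio of 4.00 was equalled or passed by 76 of the 16263 genes, Ramp3 included. In level it ranked 503 in d/d and 7280 in f/f. An antisense gene, Gm11978, overlaps an exon of Ramp3 by 164 bases and was 3.19 FPKM in d/d and listed at 0 in f/f. Whether the libraries kept strand is not stated in the labels, so fragments of this pair cannot be told apart. The antisense level was small beside that of Ramp3. Nearest to Ramp3 in both libraries were the epithelial keratin gene Krt7 at 274 FPKM in d/d and 12.4 FPKM in f/f, the complement factor gene Cfb at 189 in d/d and 15.1 FPKM in f/f, and an immunoglobulin kappa variable segment at 196 in d/d and 19.3 FPKM in f/f.

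Because FPKM is scaled per length, the 3 RAMPs could be set side by side. Their summed level was 404 FPKM in d/d and 196 FPKM in f/f. Ramp3 made up 67.5% of it in d/d and 8.21% in f/f. Ramp2 made up 28.9% in d/d and 67.9% in f/f, and Ramp1 3.68% in d/d and 23.9% in f/f. Weighted by transcript length, which stands for the share of fragments, Ramp1 made up 6.81% in d/d and 38.2% in f/f. The order of FPKM levels in d/d was therefore Ramp3, Ramp2, Calcrl, Ramp1, and in f/f Ramp2, Ramp1, Calcrl, Ramp3.

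Relative to Calcrl, with which all 3 RAMPs can pair, Ramp3 was 11.8 times the Calcrl level in d/d and 0.396 times in f/f. Ramp2 was 5.04 times the Calcrl level in d/d and 3.28 times in f/f, and Ramp1 0.643 times in d/d and 1.16 times in f/f. The 3 RAMPs together were 17.5 times the Calcrl level in d/d and 4.83 times in f/f. In d/d Ramp1 lay below Calcrl and Ramp3 above it, and in f/f Ramp1 lay above it and Ramp3 below. These are message levels of whole tissue, and they do not show which cells hold both partners.

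**Figure D2:**
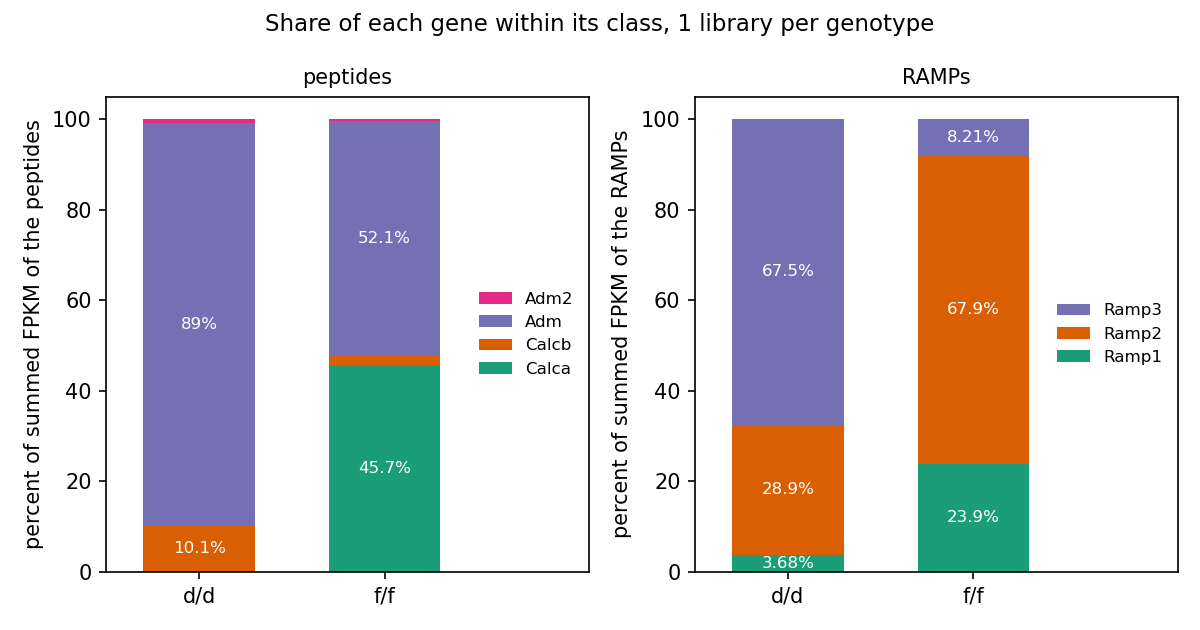
Share of each gene in the summed FPKM of its class, in percent, for the 4 peptide genes (left) and the 3 RAMP genes (right), in the d/d library and the f/f library. Ramp3 fills 67.5% of the RAMP bar in d/d against 8.21% in f/f, and Adm fills 89.0% of the peptide bar in d/d against 52.1% in f/f.

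The cell types that could carry these messages differed between the libraries as well. In bulk tissue fewer cells of a type and less RNA per cell cannot be told apart. Markers of uterine epithelium, stroma and smooth muscle were present in both libraries, with values below. Of 16 blood endothelium genes 4 were called lower and none higher, all 16 had ratios below 0, and the median log2 ratio was -0.82. Their summed level was 418 FPKM in d/d and 771 FPKM in f/f, with no marker at 0. The most abundant were Egfl7, a secreted endothelial protein, at 82.5 FPKM in d/d and 150 FPKM in f/f, and Plvap, a component of vessel-wall diaphragms, at 55.0 in d/d and 87.1 FPKM in f/f.

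Calcrl lay in the middle of the endothelium genes, with 8 of the 16 having a lower log2 ratio and 8 a higher one. As a share of their summed level Calcrl was 5.53% in d/d and 5.25% in f/f. Ramp2 lay above all 16, and was 27.8% of that sum in d/d and 17.2% in f/f. Ramp1 lay below all 16. The part of endothelial content in these values was not tested.

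**Figure D3:**
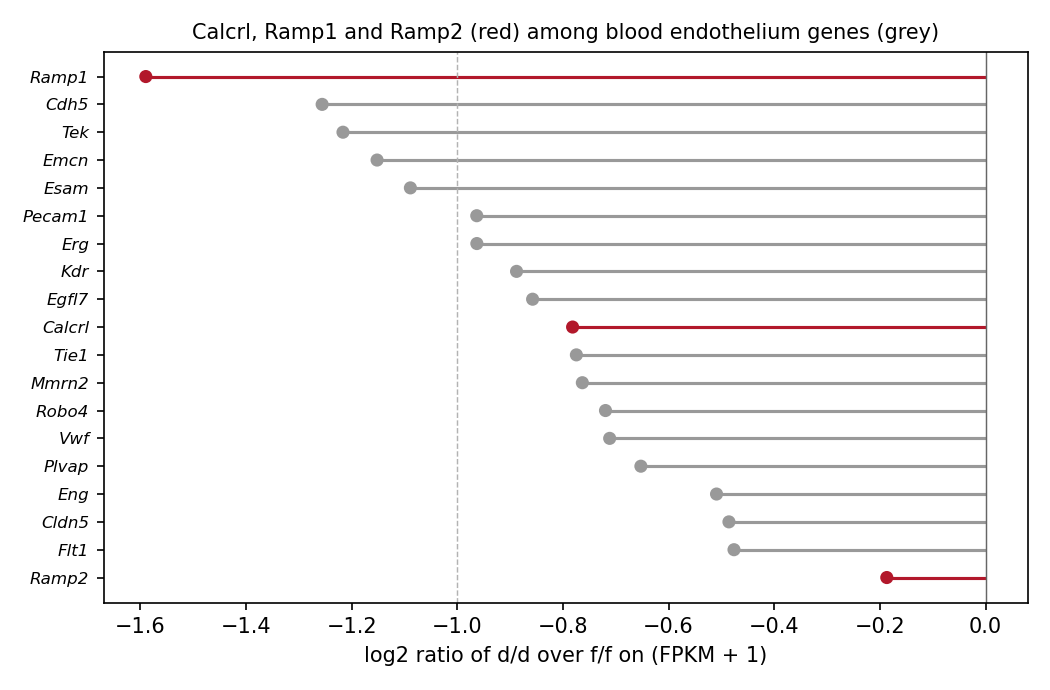
Log2 ratio on (FPKM + 1), d/d over f/f, for 16 blood endothelium genes (grey) and for Calcrl, Ramp1 and Ramp2 (red), ordered by value; the dashed line marks 2-fold lower. Calcrl at -0.78 sits within the endothelium genes, Ramp2 at -0.19 to their right and Ramp1 at -1.59 to their left.

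No lymphatic endothelium gene was called among 6 counted, of 8 matched, and their median log2 ratio was -0.30. The lymphatic sum was 361 FPKM in d/d and 245 FPKM in f/f, mostly from the chemokine gene Ccl21a at 316 in d/d and 166 FPKM in f/f. Another lymphatic marker, Pdpn, was 25.7 FPKM in d/d and 50.9 FPKM in f/f. Smooth muscle had 3 of 10 genes lower and none higher (median -0.80, sum 3521 FPKM in d/d and 5339 FPKM in f/f). Its most abundant genes, Acta2 and Tagln, were 1130 and 1042 FPKM in d/d, against 1211 and 1515 FPKM in f/f. Pericyte markers had 2 of 8 lower and none higher (median -0.84, sum 152 FPKM in d/d and 357 FPKM in f/f), with Rgs5 at 35.9 FPKM in d/d and 186 FPKM in f/f and Mcam at 42.2 in d/d and 72.2 FPKM in f/f. No marker of these 3 lists was at 0 in either library. Stroma had 6 of 11 lower and none higher, with a median of -1.05. The stromal sum was 3303 FPKM in d/d and 5569 FPKM in f/f, with the matrix genes Col3a1 at 1026 in d/d and 1616 FPKM in f/f and Dcn at 811 in d/d and 911 FPKM in f/f. Ramp1 and Calcrl were thus lower alongside vessel, muscle and stroma markers, and the part of these cells in their values was not tested.

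Ramp3 was higher alongside epithelium markers, of which 9 of 11 were called higher and none lower (median 2.78). Their sum was 2312 FPKM in d/d and 388 FPKM in f/f, with none at 0. The adhesion gene Epcam was 372 FPKM in d/d and 60.9 FPKM in f/f, and the tight junction gene Cldn3 was 247 in d/d and 119 FPKM in f/f. Leukocyte markers were mixed, with 6 of 11 counted higher and 2 lower (median 1.04), a sum of 264 FPKM in d/d and 150 FPKM in f/f, and Ly6g at 0 in f/f. Their most abundant were the macrophage genes Csf1r at 76.6 FPKM in d/d and 41.9 FPKM in f/f and Cd68 at 50.8 in d/d and 24.2 FPKM in f/f. The 2 lower were the natural killer cell genes Ncr1 and Klrb1c, with log2 ratios of -3.54 and -3.13, so the leukocyte types differed in direction. The part of epithelial or leukocyte content in the Ramp3 value was not tested.

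Calca is also a gene of sensory neurons and of thyroid C cells, so markers of both were examined. Of 15 neuron genes 5 were counted, with 3 lower and none higher (median -1.47). The neuron sum was 9.29 FPKM in d/d and 31.5 FPKM in f/f. Uchl1 was 2.70 FPKM in d/d and 14.4 FPKM in f/f, but has an annotated transcript of 228 bases, for which FPKM is less certain. The growth cone gene Gap43 was 3.56 in d/d and 11.6 FPKM in f/f. Th and Scn9a were at 0 in both libraries, Prph, Snap25, Tac1 and Nefl at 0 in d/d alone, and Trpv1 and Nefm at 0 in f/f alone. Schwann cell markers had 2 of 7 counted and none called (median 0.04, sum 14.4 FPKM in d/d and 11.8 FPKM in f/f), with Erbb3 at 12.6 in d/d and 8.92 FPKM in f/f. Of 6 thyroid genes 2 were counted, 1 of them higher and none lower (median 1.04, sum 29.9 FPKM in d/d and 16.5 FPKM in f/f). These were Pax8 at 22.1 FPKM in d/d and 13.7 FPKM in f/f, which uterine epithelium also expresses, and Tshr at 6.85 in d/d and 1.92 FPKM in f/f. The defining thyroid factor Nkx2-1 was at 0 in both libraries. The part of nerve fibres in the Calca value was not tested.

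Calca belongs to the textbook progesterone-responsive genes and Adm to the hypoxia-induced ones, and both groups were set beside them. Of 19 other progesterone-responsive genes 13 were called lower and 2 higher (median -2.20). The retinoic acid hydroxylase Cyp26a1 was 0.380 FPKM in d/d and 181 FPKM in f/f, and the activin-binding follistatin gene Fst was 0.800 in d/d and 57.6 FPKM in f/f. The itaconate enzyme Acod1 was 0.739 FPKM in d/d and 21.4 FPKM in f/f, and the epithelial signal Ihh was 0.435 in d/d and 13.7 FPKM in f/f. Estrogen-responsive genes went the other way, with 13 of 19 called higher and 1 lower (median 2.98). Padi1, which modifies arginine residues, was 338 FPKM in d/d and 3.96 FPKM in f/f, the iron-carrier binder Lcn2 was 878 in d/d and 13.4 FPKM in f/f, and Krt19 was 348 in d/d and 4.87 FPKM in f/f. Lactoferrin, Ltf, was 647 FPKM in d/d and 3.71 FPKM in f/f, but has an annotated transcript of 233 bases, for which FPKM is less certain. Calca lay on the side of most progesterone-responsive genes, and Ramp3 on that of most estrogen-responsive ones. The lists overlap: Krt19 and Cdh1 are also epithelium markers here, and Hand2 and Nr2f2 are also stroma markers. Hormone response and cell content cannot be told apart in these values, and the part of either was not tested.

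Hypoxia-induced genes were called higher in 6 of 19 cases and lower in 2 (median 0.29), while Adm was level. Car9, a carbonic anhydrase, was 8.42 FPKM in d/d and 0.228 FPKM in f/f, the oxygen-sensing hydroxylase Egln3 was 14.5 in d/d and 2.57 FPKM in f/f, and the stress gene Ddit4 was 146 in d/d and 37.1 FPKM in f/f. Ndrg1 was lower, at 26.0 FPKM in d/d and 84.1 FPKM in f/f. The Adm log2 ratio of 0.05 lay below the median of this list.

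**Figure D4:**
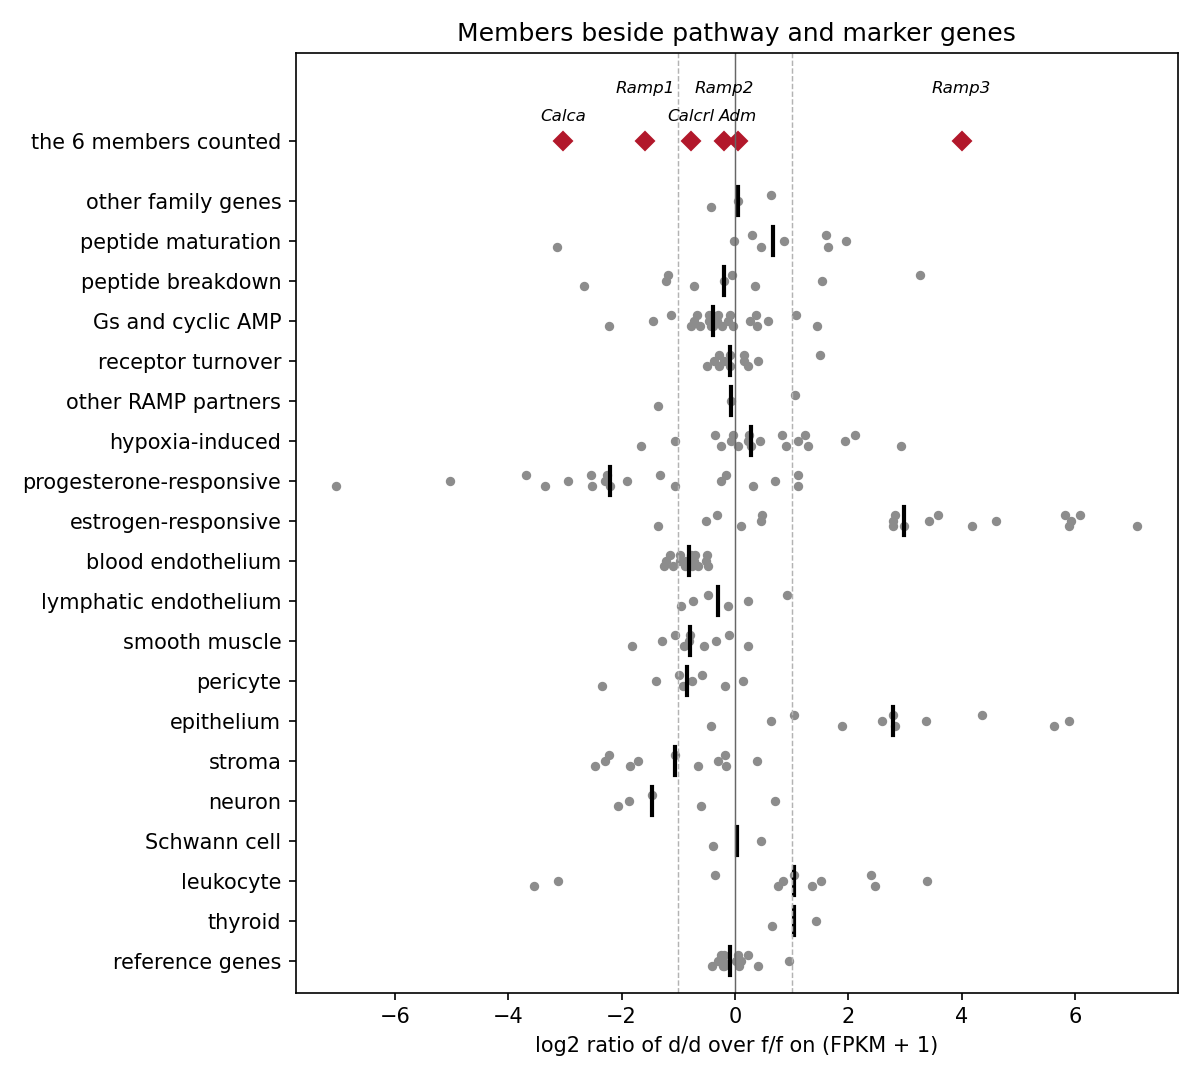
Log2 ratio on (FPKM + 1), d/d over f/f, for the 6 members counted (red diamonds, top) and for the genes of 20 pathway, marker and reference lists (grey points; vertical bars are list medians; dashed lines mark 2-fold). Ramp3 at 4.00 lies on the side of the epithelium and estrogen-responsive lists, Calca at -3.03 on that of the progesterone-responsive list, and Ramp2 and Adm lie near 0.

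The peptides need cleavage and C-terminal amidation to become active. Of 12 maturation genes 8 were counted, with 3 called higher and 1 lower (median 0.66). Higher were the prohormone convertases Furin at 73.3 FPKM in d/d and 23.4 FPKM in f/f and Pcsk6 at 27.3 in d/d and 8.10 FPKM in f/f, and the carboxypeptidase Cpm at 8.83 in d/d and 1.53 FPKM in f/f. Pcsk5, another convertase, was 4.90 FPKM in d/d and 51.0 FPKM in f/f. The neuroendocrine genes Pcsk2 and Pcsk1n were listed at 0 in d/d and were below 1 FPKM in f/f.

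Among peptidases that degrade these hormones, 3 of 9 were called lower and 2 higher (median -0.19). Mme, the membrane peptidase neprilysin, was 4.44 FPKM in d/d and 33.4 FPKM in f/f. The mast cell tryptase Tpsb2 was 0.825 FPKM in d/d and 3.25 FPKM in f/f. Anpep and Ece1 were higher, at 4263 and 8379 FPKM in d/d against 439 and 2876 FPKM in f/f, but these genes have annotated transcripts of 178 and 172 bases, which makes their FPKM uncertain.

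Downstream of Calcrl, 3 of 25 counted genes of Gs and cyclic AMP signalling were called lower and 2 higher (median -0.39). Over all genes counted 8.28% were called lower and 10.2% higher, so by calls this list was near the share of all genes. Most of its ratios were nevertheless small and negative, with 19 of the 25 below 0. Its median lay near the lower quartile of all genes, -0.41, whose median was -0.01. The adenylyl cyclases, which make cyclic AMP, differed in both directions. Adcy4 was 4.23 FPKM in d/d and 23.4 FPKM in f/f, Adcy3 was 3.64 in d/d and 11.7 FPKM in f/f, and Adcy5 was 20.9 in d/d and 6.99 FPKM in f/f. The cyclic AMP-degrading Pde3b was 3.87 FPKM in d/d and 9.59 FPKM in f/f. Of 12 genes for arrestins, receptor kinases and trafficking 1 was called, as higher (median -0.09). This was Slc9a3r1, at 59.6 FPKM in d/d and 20.4 FPKM in f/f, a scaffold protein whose human form is known to bind the tail of RAMP3.

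Other receptors that can pair with RAMPs were mostly low. Of 10 matched, 3 reached 1 FPKM, and 1 was called higher and 1 lower (median -0.06). Vipr2, a receptor for vasoactive intestinal peptide, was 0.125 FPKM in d/d and 1.89 FPKM in f/f, and the estrogen-binding receptor Gper1 was 1.67 in d/d and 0.270 FPKM in f/f. Neither gene reached a minimum of 5 FPKM, and the Gper1 call was also lost after rescaling to TPM. Calcr and Crhr1 were at 0 in both libraries, and Pth2r and Sctr at 0 in f/f. Among 5 further genes of the family 3 were counted and none was called (median 0.06). Ackr3, a scavenger receptor that takes up adrenomedullin, was 26.5 FPKM in d/d and 16.6 FPKM in f/f, and Crcp, which helps couple CGRP receptors to their signal, was 37.0 in d/d and 35.5 FPKM in f/f. No reference gene was called among 14 (median -0.09), with Actb at 11908 FPKM in d/d and 8936 FPKM in f/f and Rpl13a at 3967 in d/d and 4869 FPKM in f/f, both with annotated transcripts under 250 bases.

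Depth set the precision of the low members. From the steps of low values the libraries held about 20900000 fragments in d/d and 17800000 in f/f. These depths were chosen to give the largest share of low values at whole fragment numbers to within 0.1. That share was 68.3% of 867 low values in d/d and 72.4% of 834 in f/f, and it is no check of the depths. Ramp3 then stood for about 7018 fragments in d/d and 352 in f/f, and Ramp1 for about 722 in d/d and 1935 in f/f. Ramp2 stood for about 2868 in d/d and 2783 in f/f, Calcrl for 2359 in d/d and 3517 in f/f, and Adm for 246 in d/d and 202 in f/f. These counts are approximate, because they use the longest coding transcript of each gene, and they cover no difference between animals.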

How the data were processed

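RNA sequencing was done on whole uterus, 1 library per genotype, with TRIzol extraction and a TruSeq RNA kit, per the labels' protocols. The authors deposited FPKM, 1 value per gene. HISAT2 2.2.1, Cufflinks 2.2.1 and mm10 are listed in the submitters' processing notes. Annotation release and strandedness are not stated there or in the labels. FPKM depends on how fragments are shared between overlapping transcripts and on effective length, so short or overlapping models are uncertain.

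Rows sharing a symbol were summed. The log2 ratio, d/d over f/f, was taken on (FPKM + 1) for genes reaching 1 FPKM in d/d or f/f, and called at 2-fold. This scale understates changes of low genes. With 1 library per genotype no test, SE or p-value was computed. The 8 members, the 20 gene lists and their thresholds were chosen with earlier results of these data known. From each pathway list up to 4 called genes with the largest ratios are named, otherwise the 2 most abundant. From each marker list the 2 most abundant are named, and markers at 0 are named in addition. Some genes within this rule are not reported here. Iapp, Vps25, Gm11978, Pcsk2, Pcsk1n, Calcr, Crhr1, Pth2r, Sctr, Ncr1 and Klrb1c were named outside this rule, after their values were seen. Depth was estimated from genes with 1 annotated transcript of at least 2000 bases, using values up to 6 fragments. GENCODE M21 (GRCm38, also called mm10) gave positions and lengths, and may differ from the annotation the authors used. The counting rule was run on simulated data in which planted genes passed the threshold by construction. That run checks the code only and says nothing of the spread between animals. Python 3.11.15, pandas 2.3.3, numpy 2.4.6 and scipy 1.17.1 were used. Alternatives were pseudocounts of 0.1 and 0.5, no filter or one of 5 FPKM, 4 other scalings, a 1.5-fold threshold, the highest row per symbol, and length-weighted shares.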

Additional observations from a re-analysis of the deposited data

How the results depend on the processing

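Ramp3 was called higher, and Calca and Ramp1 lower, under every pseudocount, filter and scaling tried. Leaving out the filter could not change a call, because on (FPKM + 1) a 2-fold call already needs 1 FPKM in d/d or f/f. At a 1.5-fold threshold Calcrl joined them, which makes 3 lower members, and 3063 genes of all were then called higher and 2888 lower, against 1652 and 1346 at 2-fold. The Calca log2 ratio moved with the pseudocount, to -6.18 at 0.1 and -3.94 at 0.5, and was -2.72 after rescaling to TPM. Since Calca is listed at 0 in d/d, its size of change is set by the pseudocount. The Ramp3 ratio stayed within 3.91 to 4.09 and the Ramp1 ratio within -1.69 to -1.51. Adm took either sign, from -0.04 to 0.12. Weighting by transcript length put the Ramp3 share of the RAMPs at 66.2% in d/d and 6.95% in f/f, that of Ramp2 at 27.0% in d/d and 54.9% in f/f, and that of Ramp1 at 6.81% in d/d and 38.2% in f/f. Of 320 list counts under these alternatives 309 were within 1.5 times the reported count. These include the counts without a filter, which could not move, and many counts that were 0 at the main settings and stayed at 0. With a minimum of 5 FPKM no RAMP partner was called, 1 peptidase was lower and 1 cyclic AMP gene was higher, and after rescaling to TPM no RAMP partner was higher. A pseudocount of 0.1 gave 4 lower pericyte genes and 1 higher neuron gene. The other 4 counts that moved lay in the hypoxia, lymphatic and reference lists, each by 1 gene. Without replicates, the spread between animals is unknown, and leaving out a library was not possible.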

Other observations

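The nearest genes at 1 FPKM or more on either side of the called members were looked up after their values were seen. Beside Ramp3 lay Tbrg4, 32.5 kb away, at 30.7 FPKM in d/d and 36.7 FPKM in f/f, and Adcy1, 386 kb away, at 4.40 in d/d and 1.55 FPKM in f/f. Beside Ramp1 lay Lrrfip1, at 59.0 FPKM in d/d and 39.2 FPKM in f/f, and Ube2f, at 46.2 in d/d and 25.4 FPKM in f/f. Their log2 ratios were 0.58 and 0.84, beside -1.59 for Ramp1. Cyp2r1, 68.5 kb from Calca, was 0.660 FPKM in d/d and 1.90 FPKM in f/f. On the other side of Calca lay the pseudogene Gm15500, at 1425 FPKM in d/d and 1794 FPKM in f/f.

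Receptor genes of the ovarian steroids were also looked up after their values were seen. Pgr, the progesterone receptor gene, was 57.4 FPKM in d/d and 43.7 FPKM in f/f, a log2 ratio of 0.39. Esr1, the estrogen receptor gene, was 95.2 FPKM in d/d and 52.8 FPKM in f/f, a log2 ratio of 0.84. Neither was past 2-fold, and their part in the values of the 8 genes was not tested.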
